A study of Rattus norvegicus with 55 samples.

Results

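The glutathione and conjugation enzymes of the rat kidney were taken as every gene whose single platform symbol begins with Gsta, Gstk, Gstm, Gsto, Gstp, Gstt, Gstz, Mgst, Ugt, Sult, Gpx, Gcl or Nqo, together with Gsr and Gss. Where a gene has several probe sets, the one with the highest mean over the 55 arrays stands for it and is called its representative. The rule found 46 of the 4737 genes named by 1 symbol, and these 46 genes have 81 probe sets. A filter on dim probe sets kept 41 of the 46 representatives. The 5 that did not pass were Gpx5 (2.70 to 21.1 intensity units over the 55 arrays), Gpx6 (4.90 to 23.6), Gpx7 (15.2 to 122.3), Sult1d1 (4.30 to 221.9) and Ugt1a5 (4.20 to 169.4). The rule used symbols and the mean level over all arrays, and no difference between groups.

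Total RNA of 55 rat kidney samples was hybridised to 1-colour Affymetrix arrays. The titles call every sample SHR kidney (SHR is the usual abbreviation of the spontaneously hypertensive rat), while the descriptions call every sample Wistar-derived. The groups are 13 arrays described as immature, 14 as young, 14 as mature and 14 with no stage word. No treatment, age, sex or animal is given, so p-values measure the spread between these arrays, which may be technical in part. No allele, transgene or agent is named for any group.

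Glutathione is a tripeptide of glutamate, cysteine and glycine that keeps thiols reduced and traps reactive molecules. Glutathione S-transferases (GSTs) join it to electrophiles, UDP-glucuronosyltransferases (UGTs) attach glucuronic acid, and sulfotransferases (SULTs) attach sulfate, which makes the products more soluble. In the kidney these enzymes sit largely in the proximal tubule, which secretes conjugates into urine and breaks down glutathione at its brush border.

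Promoters of the members are shown for the genes that carry the stage differences, because the alpha-class pair Gsta1 and Gsta3 moved in opposite directions across stages (values below) although their promoters resemble each other. RefSeq promoters of assembly GRCr8, from 250 bases before to 50 after the annotated start, were matched by gene identifier for 39 of the 46 genes, in 42 promoters. Each is written 5′ to 3′ in the direction of the gene, and capitals mark letters that match a searched motif on either strand. The Gsta1 promoter lies at chr9:31216483-31216782 on the minus strand, the Gsta3 promoter at chr9:31154739-31155038 on the plus strand, the Gstp1 promoter at chr1:210769656-210769955 on the minus strand and the Ugt8 promoter at chr2:217007118-217007417 on the minus strand.
Gsta1: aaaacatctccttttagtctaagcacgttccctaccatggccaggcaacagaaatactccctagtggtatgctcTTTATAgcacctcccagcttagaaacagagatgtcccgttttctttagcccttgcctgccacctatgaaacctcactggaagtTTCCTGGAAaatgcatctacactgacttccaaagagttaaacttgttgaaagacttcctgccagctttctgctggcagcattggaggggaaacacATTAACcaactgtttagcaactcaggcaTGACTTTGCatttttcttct
Gsta3: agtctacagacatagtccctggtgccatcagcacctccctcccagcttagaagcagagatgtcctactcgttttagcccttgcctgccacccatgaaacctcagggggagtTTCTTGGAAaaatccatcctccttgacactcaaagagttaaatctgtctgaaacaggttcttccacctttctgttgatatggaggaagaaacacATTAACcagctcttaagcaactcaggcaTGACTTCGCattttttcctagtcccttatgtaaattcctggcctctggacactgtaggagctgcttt
Gstp1: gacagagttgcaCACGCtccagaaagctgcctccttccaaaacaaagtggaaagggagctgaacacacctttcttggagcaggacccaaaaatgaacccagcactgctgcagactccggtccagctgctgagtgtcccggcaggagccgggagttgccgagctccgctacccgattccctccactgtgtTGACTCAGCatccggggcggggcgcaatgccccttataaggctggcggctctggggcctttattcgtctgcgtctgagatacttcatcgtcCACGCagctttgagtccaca
Ugt8: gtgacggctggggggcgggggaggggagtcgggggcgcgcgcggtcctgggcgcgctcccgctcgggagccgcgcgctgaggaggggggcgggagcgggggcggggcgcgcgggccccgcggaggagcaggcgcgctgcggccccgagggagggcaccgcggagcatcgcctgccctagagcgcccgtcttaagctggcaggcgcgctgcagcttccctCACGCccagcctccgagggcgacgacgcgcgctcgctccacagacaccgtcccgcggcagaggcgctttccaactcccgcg

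The motifs searched were the antioxidant response element core TGACNNNGC, the xenobiotic response element core GCGTG, the HNF1 site GTTAAT, the STAT site TTCNNNGAA and the TATA box TATAAA, each on both strands. Aligned, the Gsta1 and Gsta3 promoters were identical at 208 of 243 bases (85.6%), against 60.3% to 70.5% for the other 5 pairs among these 4 promoters. Both alpha-class promoters hold the STAT, HNF1 and antioxidant response element letters in that order. In Gsta1 these matches begin at -93, 2 and 30 bases from the annotated start, and in Gsta3 at -139, -45 and -17. Gstp1 holds the antioxidant response element letters at -61 and the xenobiotic letters in 2 places, and of the 5 motifs Ugt8 holds only the xenobiotic letters, at -31. A second RefSeq start of Gsta3 holds no antioxidant response element letters.

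The antioxidant response element core was found in 7 of the 42 member promoters (16.7%; Gclm, Gpx2, Gsta1, Gsta3, Gstm5, Gstm7 and Gstp1), against 12.1% of all 33469 promoters. The shares for the other motifs were 35.7% against 29.7% for the xenobiotic core, 11.9% against 7.45% for the HNF1 site, 14.3% against 8.87% for the STAT site and 28.6% against 14.2% for the TATA box. A match describes letters in this window and is neither a site nor a cause.

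Arrays were not alike in technical terms. Clustering of 42 control probe sets, with the number of sets fixed at 3, gave sets of 10, 19 and 26 arrays, called sets 1, 2 and 3. The immature arrays lie in set 1 (6) and set 2 (7), the young arrays and those with no stage word in sets 2 and 3 (6 and 8 of each), and the mature arrays in set 1 (4) and set 3 (10). Mature and immature arrays therefore meet only in set 1, and young and immature arrays only in set 2. Mature replicates 1 and 9 had a GAPDH 3′ to 5′ ratio of 7.18 and 3.47, against 0.827 to 2.62 on the other arrays. An 18S rRNA probe read above 4000 on 9 arrays, including the 7 immature arrays of set 2. The 28 proximal tubule markers summed to 94648 to 138504 on immature arrays, 127728 to 168318 on young, 130214 to 170472 on those with no stage word and 101927 to 172518 on mature arrays. The 9 liver markers on the array summed to 637 to 2172. No marker of any list was at 0 on every array. In bulk tissue, fewer cells of a type and less RNA per cell cannot be told apart.

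Over the 4 groups, limma's moderated F test with Benjamini-Hochberg adjustment called 11 of the 41 members (26.8%), against a background of 28.5% of the 6555 probe sets tested. Mature against immature arrays called 8 members (19.5%; 4 higher and 4 lower), against 24.4% of all probe sets (10.3% higher and 14.1% lower). Young against immature arrays called 12 (29.3%; 6 higher and 6 lower), against 18.7% (9.47% higher and 9.21% lower). The mature share lies below its background and the young share above it. With the technical set as a block the shares were 17.1% against 12.6% and 17.1% against 8.89%. No test compared the shares with the background, so the number of members that changed is not read as a result about these enzymes. Their identities are described below. The median log2 change of the 41 members was 0.15 mature over immature, against 0.04 for all probe sets, and 0.17 young over immature, against 0.04. These comparisons share the immature arrays, and 7 members passed in both: Gsta1, Gsta3, Gstp1, Gstt2, Mgst1, Ugt2b and Ugt8. The overlap over all probe sets was not counted, so that number is not read as a result about the members either.

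Of the glutathione synthesis genes, only Gclm passed one of the tests between stage words. Gclc encodes the catalytic subunit of glutamate-cysteine ligase, the rate-limiting step, and Gclm its modifier subunit. Gss, glutathione synthetase, adds glycine, and Gsr, glutathione reductase, regenerates reduced glutathione. Gclm read 1526, 2853 and 3704 (lowest, median and highest) on immature arrays, 2717, 3488 and 4582 on young, 2078, 3290 and 3984 on those with no stage word, and 2045, 3309 and 4088 on mature arrays. The groups overlapped, and Gclm rose young over immature by 0.39 ± 0.12 on the log2 scale (SE; adjusted p = 0.018, limma). Under the technical set as a block, the change was 0.24 (adjusted p = 0.24).

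Gss read 2658, 3606 and 5073 on immature arrays, 3097, 4041 and 5112 on young, 3558, 4421 and 6359 on those with no stage word, and 3177, 4156 and 5712 on mature arrays. Mature over immature, its log2 change was 0.27 (adjusted p = 0.068, limma), 0.40 with the set as a block (adjusted p = 0.0091) and -0.03 without the arrays with a high 18S reading. Against immature, the arrays with no stage word were higher by 0.40, which passed. Gclc ranged from 53.4 to 11751 and Gsr from 331.1 to 1757, with no stage comparison passing in the fit of all arrays without a block.

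The lowest Gclc and Gsr readings came from the mature replicates with a high GAPDH ratio. Gclc read 53.4 and 374.9 on mature replicates 1 and 9, against 2004 to 11751 on the other mature arrays. Gsr read 371.7 and 331.1 there, against 892.2 to 1757. Sult1c2a, a sulfotransferase, read 609.9 and 584.6, against 2408 to 7370. Of the 41 members, 9 on replicate 1 and 7 on replicate 9 lay below every array with a GAPDH ratio up to 3. No share over all probe sets is given for this count, so it is not read as a result about the members. Other members lay above the other mature arrays. On replicate 1, Mgst3 read 11610, against 4608 to 7916, and Ugt2b 2296, against 704.3 to 1458. On replicate 9, Gstt1 read 1529, against 823.4 to 1306, and Gsto1 7843, against 2270 to 6562. Without these 2 arrays the log2 change of Gclc mature over immature was 0.31, against -0.46 with them, and 10 members passed mature against immature in place of 8, against a background of 24.9%. The 2 added were Gclm (0.31, adjusted p = 0.046) and Sult1c3 (0.41, adjusted p = 0.023, limma). In that fit Gclc passed as higher young against immature (background 25.4%) and no stage word against immature (background 33.7%). The part of RNA quality in these readings was not tested further.

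**Figure D1:**
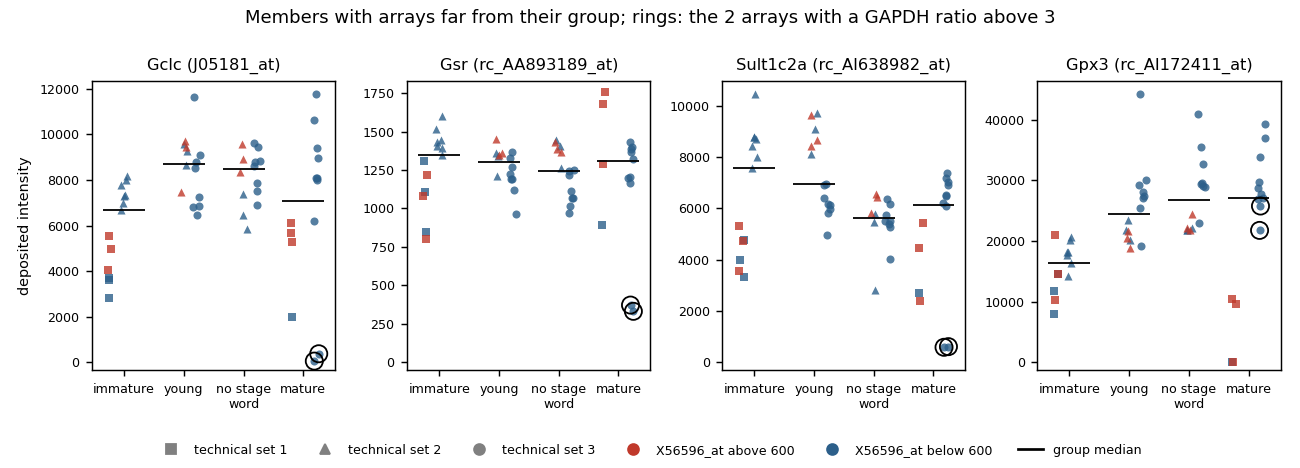
Intensity (deposited units) of Gclc, Gsr, Sult1c2a and Gpx3 on each array, by stage description, with rings around the 2 mature arrays whose GAPDH 3′ to 5′ ratio is above 3. Gclc on the ringed arrays is 53.4 and 374.9, against 2004 to 11751 on the other mature arrays, and Gpx3 is listed at 0 on 2 other mature arrays.

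The glutathione peroxidases use glutathione to reduce peroxides. Gpx1 is the main intracellular form, Gpx3 the secreted form made largely by proximal tubule, and Gpx4 acts on lipid hydroperoxides in membranes. Gpx3 read 8032, 16395 and 20949 on immature arrays, 18895, 24501 and 44189 on young, 21813, 26738 and 40946 on those with no stage word, and 0.00, 27023 and 39283 on mature arrays. It is listed at 0 on mature replicates 5 and 12, both in set 1. Another probe set of Gpx3 read 2671 to 5789 on the set 1 mature arrays, and the cause of the zeros was not tested. Gpx3 mature over immature was -0.83 ± 0.73 (adjusted p = 0.42, limma), and -2.27 ± 0.68 with the set as a block (adjusted p = 0.02), and both values include the zeros. The other probe set, D00680_at, was 0.13 mature over immature (adjusted p = 0.83) and -0.42 with the block (adjusted p = 0.54). Gpx1 (5276 to 16216), Gpx2 (72.4 to 327.6) and Gpx4 (2561 to 6451) passed no stage comparison in the fit of all arrays without a block.

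The alpha-class GSTs showed the widest split. Gsta1 and Gsta3 encode near relatives that conjugate glutathione to many electrophiles and reduce lipid peroxides. Gsta1 read 2067, 3825 and 6559 on immature arrays, 6000, 8614 and 10450 on young, 5328, 7469 and 10862 on those with no stage word, and 2974, 9371 and 14271 on mature arrays. Apart from the 2 mature arrays with a high GAPDH ratio (2974 and 4158), every reading below 5328 came from an immature array. Gsta1 rose mature over immature by 0.99 ± 0.16 (1.98-fold, adjusted p = 5.9e-06, limma) and young over immature by 1.06 ± 0.16 (2.08-fold, adjusted p = 2.9e-06). With the set as a block the changes were 0.79 (adjusted p = 0.0015) and 0.83 (adjusted p = 9.8e-04), and inside set 1 (mature) and set 2 (young) they were 0.82 (adjusted p = 0.17) and 0.86 (adjusted p = 1.6e-04).

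Gsta3 went the other way. It read 852.0, 1185 and 2053 on immature arrays, 559.8, 714.2 and 847.6 on young, 521.6, 749.5 and 822.0 on those with no stage word, and 164.4, 637.4 and 907.3 on mature arrays. The immature arrays did not overlap those of the young group and those with no stage word. Gsta3 fell by 1.08 ± 0.15 (log2) mature against immature (2.11-fold, adjusted p = 1.5e-07, limma) and by 0.73 ± 0.15 young against immature (adjusted p = 3.3e-04). The mature change was -1.03 with the set as a block (adjusted p = 1.7e-05), -1.06 inside set 1 (adjusted p = 0.076) and -1.22 and -1.03 inside the arrays with X56596_at above and below 600 (division below).

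Other probe sets of both genes moved the same way. Gsta1 has K01932_f_at (0.74 mature over immature, adjusted p = 0.001, limma) and X78848cds_f_at (0.51, adjusted p = 0.096), whose young over immature changes were 1.03 and 0.99, both called. Gsta3 has S72506_s_at (-1.18, adjusted p = 9.8e-09) and rc_AA945082_at (-0.74, adjusted p = 3.3e-05). The endings _f_at and _s_at mark probe sets that may detect several near-identical sequences, so the alpha-class signal can be shared between relatives. The representatives, S72505_f_at of Gsta1 and S82820mRNA_s_at of Gsta3, carry such an ending, and rc_AA945082_at of Gsta3 does not. Gsta4, which prefers the lipid peroxidation product hydroxynonenal, fell by 0.28 ± 0.10 young against immature by its representative (adjusted p = 0.036, limma). With the set as a block the Gsta4 representative was -0.18 (adjusted p = 0.2) and inside the arrays above 600 it was 0.21. Without young replicate 12 its adjusted p was 0.081. The other Gsta4 probe set, X62660mRNA_at, went the opposite way without passing, at 0.24 young over immature (adjusted p = 0.49). It was 0.43 with the block (adjusted p = 0.29), so no stage direction is given for Gsta4.

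Gstp1 encodes the pi-class transferase. It read 2659, 5131 and 5775 on immature arrays, 5624, 7488 and 9107 on young, 6861, 8678 and 10019 on those with no stage word, and 5157, 7532 and 10992 on mature arrays. No immature array read above 5775, and 1 young and 2 mature arrays read below that. Gstp1 rose mature over immature by 0.62 ± 0.10 (1.54-fold, adjusted p = 9.2e-06, limma) and young over immature by 0.62 (adjusted p = 2.0e-05), and the mature change was 0.61 with the set as a block (adjusted p = 2.4e-04). A dimmer probe set, X02904cds_s_at, rose by 0.61 young over immature (adjusted p = 0.025) and was 0.51 mature over immature (adjusted p = 0.051).

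The theta-class transferases Gstt1 and Gstt2 differed. Gstt1 read 583.2, 709.4 and 1158 on immature arrays, 632.1, 777.5 and 1117 on young, 736.8, 930.9 and 1188 on those with no stage word, and 823.4, 946.5 and 1529 on mature arrays. The groups overlapped, and Gstt1 rose mature over immature by 0.40 ± 0.10 (1.32-fold, adjusted p = 0.0015, limma). Without the arrays with a high 18S reading the change was 0.18 (adjusted p = 0.37). Mature over young, Gstt1 alone among the members passed (1 of 41, 2.44%, against a background of 1.80%), by 0.36 ± 0.10 (1.28-fold, adjusted p = 0.036). That call was kept in 46 of the 55 fits that left out 1 array; without mature replicate 9 it was 0.31 (adjusted p = 0.082), and with the set as a block 0.27 (adjusted p = 0.13).

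Gstt2, by its representative rc_AI138143_at, read 715.5, 2114 and 4964 on immature arrays, 579.3, 867.0 and 3065 on young, 365.4, 1058 and 1458 on those with no stage word, and 624.7, 1210 and 2386 on mature arrays. Immature arrays spread over most of the range of the gene, and the groups overlapped. Gstt2 fell by 0.80 ± 0.25 mature against immature (1.74-fold, adjusted p = 0.016, limma) and by 0.94 young against immature (adjusted p = 0.0066). Blocked by set, these were -0.43 (adjusted p = 0.34) and -0.51 (adjusted p = 0.26). The other Gstt2 probe set, D10026_s_at, went the opposite way, up by 0.45 ± 0.14 mature over immature (adjusted p = 0.011) and 0.76 with the block (adjusted p = 5.1e-05), so no stage direction is given for the gene.

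The remaining transferases include Gsto1, an omega-class enzyme with thiol-reducing activity, which fell by 0.57 ± 0.18 young against immature (adjusted p = 0.024, limma) but was -0.09 with the set as a block (adjusted p = 0.8). Mgst1, a membrane-bound transferase of the endoplasmic reticulum and mitochondria, read 4521, 5457 and 6684 on immature arrays, 3495, 4206 and 4971 on young, 3307, 4625 and 6371 on those with no stage word, and 2494, 4167 and 6171 on mature arrays. The ranges overlapped, and Mgst1 fell by 0.36 ± 0.10 mature against immature (1.28-fold, adjusted p = 0.0067) and by 0.38 young against immature (adjusted p = 0.0059). With the block the mature change was -0.17 (adjusted p = 0.29). Of the mu-class genes, Gstm1 (328.8 to 1792), Gstm2 (457.8 to 1877) and Gstm5 (16.6 to 214.3) passed in no stage comparison by their representatives, nor did Gstk1 (683.5 to 2668), Mgst2 (418.1 to 1287) and Mgst3 (3836 to 11610), nor Nqo1 (110.1 to 605.5), a quinone reductase. Gstm1 on the 7 immature arrays of set 2, all with a high 18S reading, was 328.8 to 392.1, against 777.4 to 1792 on the immature arrays of set 1.

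**Figure D2:**
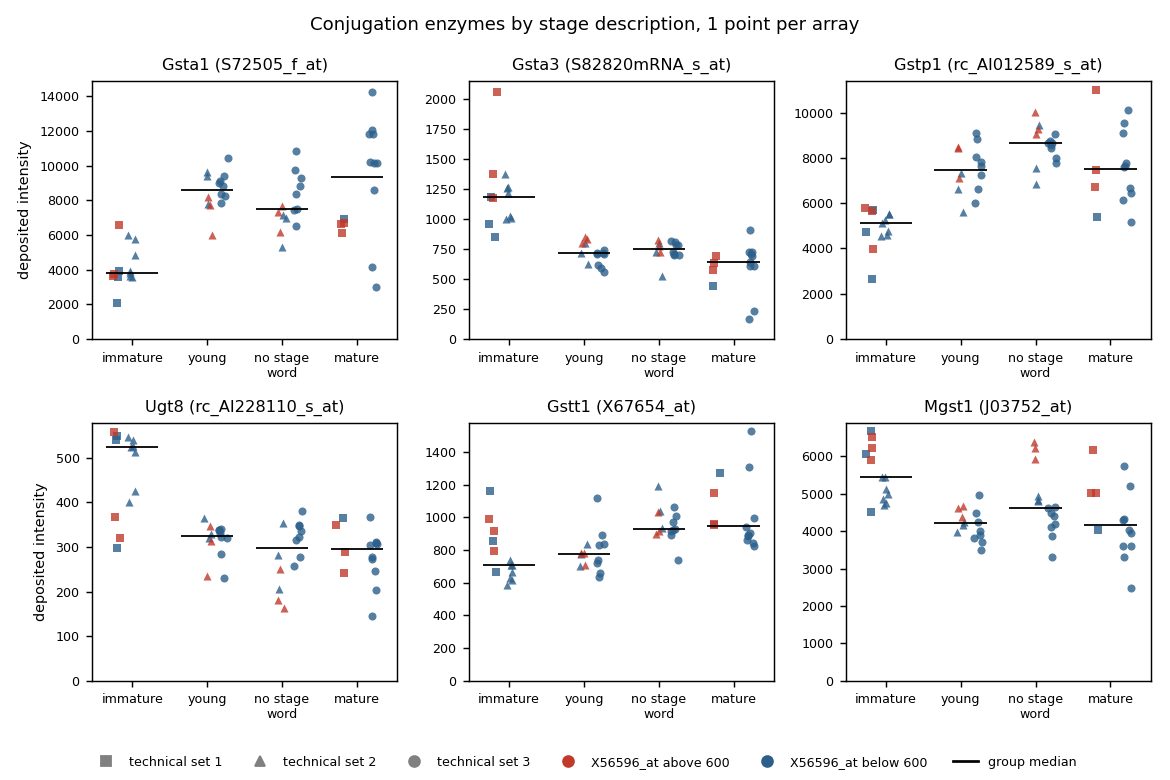
Intensity (deposited units) of Gsta1, Gsta3, Gstp1, Ugt8, Gstt1 and Mgst1 on each of the 55 arrays, by stage description. The shape gives the technical set, red marks arrays with X56596_at above 600 and blue those below, and the line is the group median. Gsta1 is lower on immature arrays and Gsta3 higher, with medians of 3825 and 1185 on the immature arrays.

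Of the UGT genes, Ugt8, which attaches galactose to ceramide, read 298.5, 523.5 and 557.5 on immature arrays, 231.3, 325.6 and 364.1 on young, 164.3, 298.7 and 380.6 on those with no stage word, and 144.8, 295.9 and 367.7 on mature arrays. Of the 13 immature arrays, 10 read above every array of the other groups. Ugt8 fell by 0.70 ± 0.12 mature against immature (1.62-fold, adjusted p = 1.9e-05, limma) and by 0.53 young against immature (adjusted p = 0.0013). Blocked by set, the mature change was -0.76 (adjusted p = 7.7e-05). Without the arrays with a high 18S reading, Ugt8 was called mature against immature but not young against immature.

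Ugt2b, a glucuronosyltransferase of steroids and drugs, read 413.2, 718.3 and 1255 on immature arrays, 700.1, 940.7 and 2042 on young, 634.8, 932.4 and 1908 on those with no stage word, and 704.3, 1069 and 2296 on mature arrays. The ranges overlapped, with the lowest readings on immature arrays. Ugt2b rose by 0.60 ± 0.17 mature over immature (1.52-fold, adjusted p = 0.0053, limma) and by 0.46 young over immature (adjusted p = 0.043). It was 0.35 with the set as a block (adjusted p = 0.18) and -0.07 inside set 1. The immature arrays of set 2 read 413.2 to 718.3 against 849.2 to 1255 in set 1, and the part of the set in this change was not tested further. The other 2 probe sets of Ugt2b did not pass (0.12 and 0.06, adjusted p = 0.74 and 0.85). Ugt2b7 rose young over immature by 0.59 ± 0.19 (adjusted p = 0.027), 0.42 with the block (adjusted p = 0.23). The young over immature call of Ugt2b was kept in 42 of the 55 fits that left out 1 array (adjusted p = 0.097 without young replicate 12), and that of Ugt2b7 in 50 (0.070 without immature replicate 2).

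Among the sulfotransferases, Sult1c3 rose young over immature by 0.48 ± 0.16 (adjusted p = 0.035, limma), with 0.40 under the block (adjusted p = 0.19) and an adjusted p of 0.071 without young replicate 12. Members that passed in none of the stage comparisons are named by their ranges: Sult1a1 (467.2 to 2909), Sult1c2a (584.6 to 10472), Sult2a1 (14.3 to 332.6), Sult2a2 (115.2 to 758.3), Sult2a6 (22.6 to 277.3) and Sult5a1 (469.9 to 1889). The UGT genes among them were Ugt1a9-ps (5.90 to 121.6), Ugt2a1 (28.9 to 215.3), Ugt2b1 (10.9 to 230.9), Ugt2b15 (142.1 to 557.5), Ugt2b35 (392.9 to 7195) and Ugt2b37 (12.5 to 207.3). In all, 24 of the 41 members passed in none of the 4 comparisons mature against immature, young against immature, mature against young and above against below 600. The share of all probe sets that passed in none of them was not counted, so this number is not read as a result about the members.

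Arrays with no stage word differed from the immature arrays in 10 members. They were 24.4% of the members, against 27.0% of all probe sets: Gss (0.40), Gsta1 (0.91), Gstp1 (0.82), Gstt1 (0.33) and Ugt2b (0.44) higher, and Gsta3 (-0.67), Gsta4 (-0.33), Gsto1 (-0.49), Gstt2 (-1.23) and Ugt8 (-0.69) lower. With the set as a block 13 members passed (31.7%, against 20.0%), without Ugt2b and Gsto1 and with Gpx4, Gstm1, Gstm2, Gstm7 and Sult1a1 added. Against young, no member passed by limma (2 had an unadjusted p under 0.05; background 0.229%), and against mature none did either (4 had; background 0.412%).

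With the technical set as a block, mature against immature called 7 members, against a background of 12.6%. These were Gsta1, Gsta3, Gstp1, Gstt1 and Ugt8 of the 8 named above, together with Gss and Gpx3, whose call includes the 2 zeros and was not shared by its other probe set. Young against immature also called 7, against a background of 8.89%: Gsta1, Gsta3, Gstp1 and Ugt8 of the 12, together with Gss (0.41, adjusted p = 0.0097, limma), Gstm1 (0.47, adjusted p = 0.042) and Gstm2. Gstm1 was instead called lower young against immature without the arrays with a high 18S reading. It was also called lower inside the arrays with X56596_at above 600 (division below), so no stage direction is given for it. Inside set 1, where 6 immature and 4 mature arrays meet, 0 members passed mature against immature by limma (6 had an unadjusted p under 0.05), against 0.717% of all probe sets. The changes there were 0.82 for Gsta1, -1.06 for Gsta3, 0.68 for Gstp1 and -0.45 for Ugt8, with adjusted p from 0.076 to 0.41. Inside set 2, 12 members passed young against immature (29.3%, as of all probe sets), including Gsta1 (0.86), Gsta3 (-0.59), Gstp1 (0.51) and Ugt8 (-0.62). Every immature array of set 2 had a high 18S reading, whose part in these changes was not tested. Without the arrays with a high 18S reading, young and immature arrays share no set. That fit called 9 members young against immature (22.0%, against 18.0%), with Gsta1, Gsta3 and Gstp1 but not Ugt8.

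**Figure D3:**
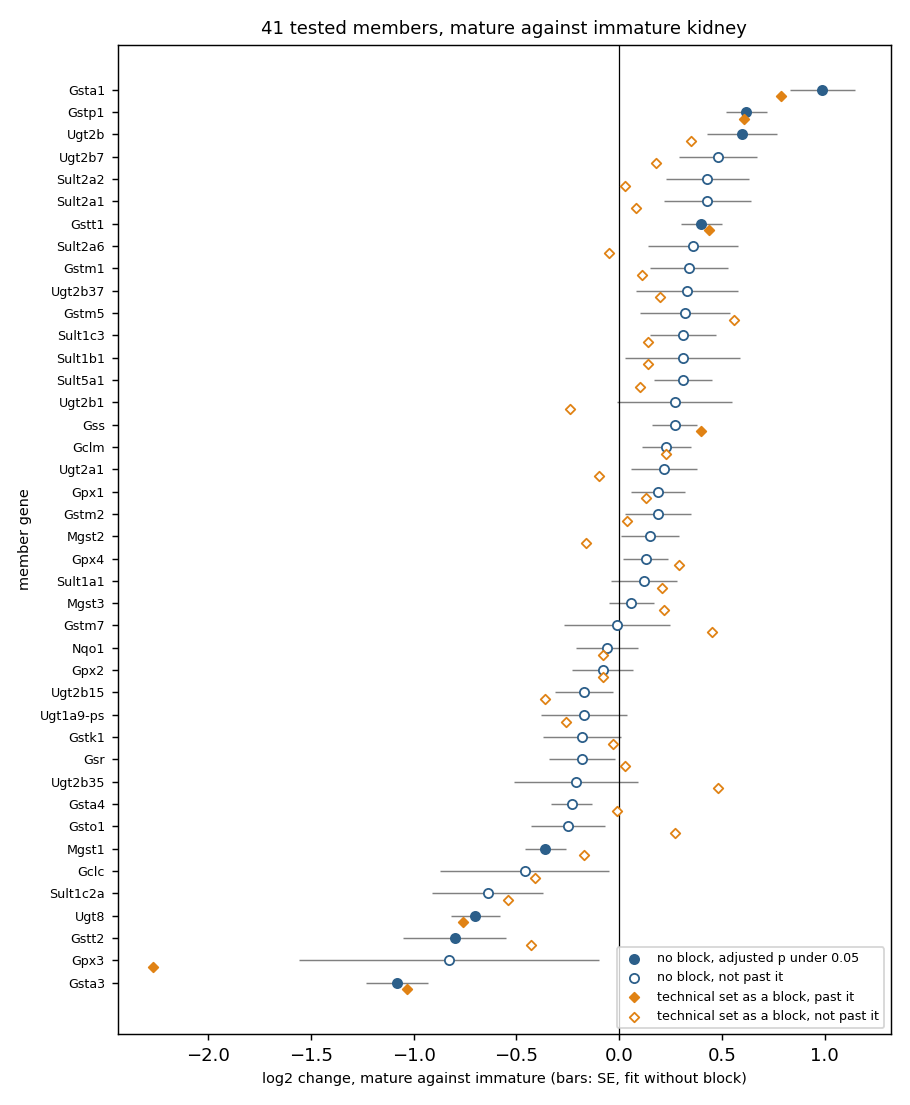
Log2 change mature over immature of the 41 members with its SE, fitted without a block (blue circles, filled where adjusted p is below 0.05) and with the technical set as a block (orange diamonds). Gsta1 lies at 0.99 and Gsta3 at -1.08, and with the block at 0.79 and -1.03.

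Genes that work with these enzymes were described by fixed lists. Over all probe sets, 10.3% rose and 14.1% fell mature against immature, and 9.47% and 9.21% young against immature. With the set as a block, 12.6% and 8.89% passed in these 2 comparisons. No test compared a list with these shares, so the counts in the lists are not read as results about the lists. Of 25 tested phase I enzymes, which oxidise or hydrolyse foreign and hormonal molecules, 13 rose and 2 fell mature against immature, and with the set as a block 9 rose and 2 fell. The median of the list was 0.41. Cyp2c11, a male-predominant hydroxylase of rat liver, read 20.7, 70.3 and 239.4 on immature arrays, 1286, 1612 and 2946 on young, 1288, 2560 and 4072 on those with no stage word, and 834.6, 2003 and 4361 on mature arrays. Its immature arrays overlapped none of the others, and it rose by 4.81 (adjusted p = 1.3e-21, limma), or 5.09 with the block. Maob, which oxidises amines, rose by 0.88 (adjusted p = 4.9e-07), and Ces1d, a carboxylesterase, fell by 1.20 in log2 (adjusted p = 1.8e-06).

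Of 14 genes of glutathione use and salvage, 6 rose and 1 fell mature against immature, and 7 rose and 0 fell young against immature. With the set as a block 5 rose mature against immature and 2 young against immature (Anpep and Slc22a6), and 0 fell in either. Slc22a6, the organic anion transporter of the proximal tubule, rose by 0.66 (adjusted p = 1.5e-06, limma), Slc13a3, which carries dicarboxylates, by 0.71 (adjusted p = 8.1e-05) and Ggt1, which cleaves extracellular glutathione, by 0.77 (adjusted p = 2.7e-04). With the block Slc22a6 was 0.79, Slc13a3 0.33 (adjusted p = 0.046) and Ggt1 0.59. All 3 also belong to the proximal tubule marker list, of which 8 of 28 rose and 3 fell. Of the other marker lists, 1 of 6 thick ascending limb markers rose and 1 fell, 2 of 14 distal nephron markers rose and 5 fell, 1 of 4 podocyte, 1 of 6 endothelial and 1 of 4 adrenal markers rose, 1 of 9 immune markers rose and 1 fell, and 2 of 4 erythroid markers fell. None of 6 liver, 2 fat and 4 muscle markers passed. Their part in the changes of the members was not tested.

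Of 12 genes of cysteine and methyl supply, 1 rose (Cbs, 0.26, adjusted p = 0.012, limma) and 1 fell (Mtr, -0.54, adjusted p = 0.036), and with the block 2 rose (Cbs and Bhmt) and Mtr was -0.53 (adjusted p = 0.11). Of 14 thioredoxin, peroxiredoxin, catalase and superoxide dismutase genes, 2 rose (Selenop, 0.42; Cat, 0.59) and 1 fell (Prdx3, -0.72), and with the block 0 did. NRF2 is the transcription factor that binds antioxidant response elements. Of 13 other NRF2 target genes, 4 rose, among them the aldehyde reductase Akr7a3 (0.74, adjusted p = 1.1e-05), the epoxide hydrolase Ephx1 (0.47, adjusted p = 0.0046) and the transketolase Tkt (0.28, adjusted p = 0.036), and with the block 2 did. Of 9 genes of cosubstrate supply, 2 rose: Slc26a1, a sulfate transporter (0.66, adjusted p = 5.7e-05), and Sts, the steroid sulfatase (0.49, adjusted p = 0.0028). Of 16 regulators, 4 rose, among them Hnf4a (0.80, adjusted p = 4.2e-04; 1.11 with the block), Stat5b (0.44) and Arnt (0.57). Blocked by set, Hnf4a was the only regulator that rose and Nr3c1 the only one that fell, while Stat5b was 0.28 (adjusted p = 0.16) and Arnt 0.14 (adjusted p = 0.6). Nr3c1 was -0.53 with the block (adjusted p = 0.014, limma), but 0.90 without the 2 arrays with a high GAPDH ratio and without a block (adjusted p = 0.075). Its medians were 181.9 on immature and 523.2 on mature arrays, so no stage direction is given for Nr3c1. Nfe2l2, which encodes NRF2, fell by 0.62 in log2 (adjusted p = 0.048), and was -0.14 with the block (adjusted p = 0.75) and -0.49 without the 2 arrays with a high GAPDH ratio (adjusted p = 0.13).

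The arrays also fall apart by X56596_at, a probe set of the MHC class II gene RT1-Bb, which is no member. It read 1412 to 2381 on 12 arrays and 80.1 to 263.0 on 43, with 3 of the 12 in each stage group. The labels name nothing for this division, and the higher arrays lie in sets 1 and 2. Above against below 600, with stage as a term, 7 of 41 members passed (17.1%; 6 higher and 1 lower), against 9.15% of all probe sets (3.74% higher and 5.42% lower). With the set as a block 1 member passed, against a background of 2.12%. The members' median was 0.05, against -0.02 for all probe sets. Proximal tubule markers summed to 101927 to 144916 above and 94648 to 172518 below.

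Gstt2, a theta-class transferase, had the smallest adjusted p. Its representative read 1238, 2385 and 4964 on the arrays above 600 and 365.4, 1021 and 2639 below, a log2 change of 1.07 ± 0.16 (2.10-fold, adjusted p = 1.7e-06, limma), and 1.15 ± 0.22 with the set as a block (adjusted p = 2.6e-04). Inside set 2, arrays with no stage word read 1238, 1357 and 1458 above and 365.4, 411.0 and 433.2 below, and young arrays 2384, 2491 and 3065 against 1071, 1313 and 1734. Inside set 1, immature arrays read 3258, 4168 and 4964 against 715.5, 1652 and 2639. In each of these cells all 3 arrays above 600 lay higher than all 3 below. Among mature set 1 arrays the values were 1741, 2052 and 2386 above and 1953 on the 1 array below. The other Gstt2 probe set was higher above 600 as well, by 0.48 (adjusted p = 4.4e-04), but by 0.35 with the block (adjusted p = 0.19).

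Gsto1 read 3843, 5224 and 6562 above and 1752, 3285 and 7843 below, a change of 0.65 ± 0.13 (1.57-fold, adjusted p = 4.2e-04, limma), and 0.31 with the block (adjusted p = 0.58). Mgst1 read 4375, 5906 and 6507 above and 2494, 4329 and 6684 below, 0.34 ± 0.07 (1.26-fold, adjusted p = 0.0013), and 0.24 with the block (adjusted p = 0.29). Gstm7 read 131.5, 258.6 and 375.2 above and 53.5, 135.9 and 373.0 below, 0.68 ± 0.20 (1.60-fold, adjusted p = 0.023). Gstm7 was 0.19 with the block (adjusted p = 0.96), and without immature replicate 2 it was 0.61 (adjusted p = 0.052). In all 3 genes the ranges overlapped.

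Gpx4 read 3772, 4914 and 6451 above and 2561, 4068 and 5637 below, 0.29 ± 0.09 (1.22-fold, adjusted p = 0.025, limma). Without no-stage-word replicate 8 or mature replicate 8 the adjusted p was 0.052 and 0.073. Gss read 3586, 4692 and 6359 above and 2658, 3994 and 5728 below, 0.28 ± 0.09 (1.22-fold, adjusted p = 0.026), and its call was kept in 52 of the 55 fits without 1 array (adjusted p = 0.055 to 0.06 in the others, without no-stage-word replicate 4 or 8 or mature replicate 8). With the block Gpx4 was 0.15 (adjusted p = 0.86) and Gss 0.12 (adjusted p = 0.91).

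Sult1b1 was the member lower above 600. It read 57.0, 684.8 and 1221 above and 421.6, 1115 and 1905 below, and fell by 0.84 ± 0.21 in log2 (1.79-fold, adjusted p = 0.0062, limma). Immature replicate 1 has the reading of 57.0, and without it the change was -0.57 (adjusted p = 0.026). With the block it was -0.84 (adjusted p = 0.12). Immature set 1 arrays read 57.0, 293.0 and 587.7 above against 799.1, 801.9 and 1293 below, and arrays with no stage word in set 2 were 0.12 higher above. Ugt2b35 read 392.9, 5477 and 7195 above and 615.8, 2723 and 4672 below, with a change of 0.67 ± 0.24 that missed the threshold (adjusted p = 0.07). Without immature replicate 2, which holds its lowest reading above 600, it was 0.99 (adjusted p = 1.3e-04).

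**Figure D4:**
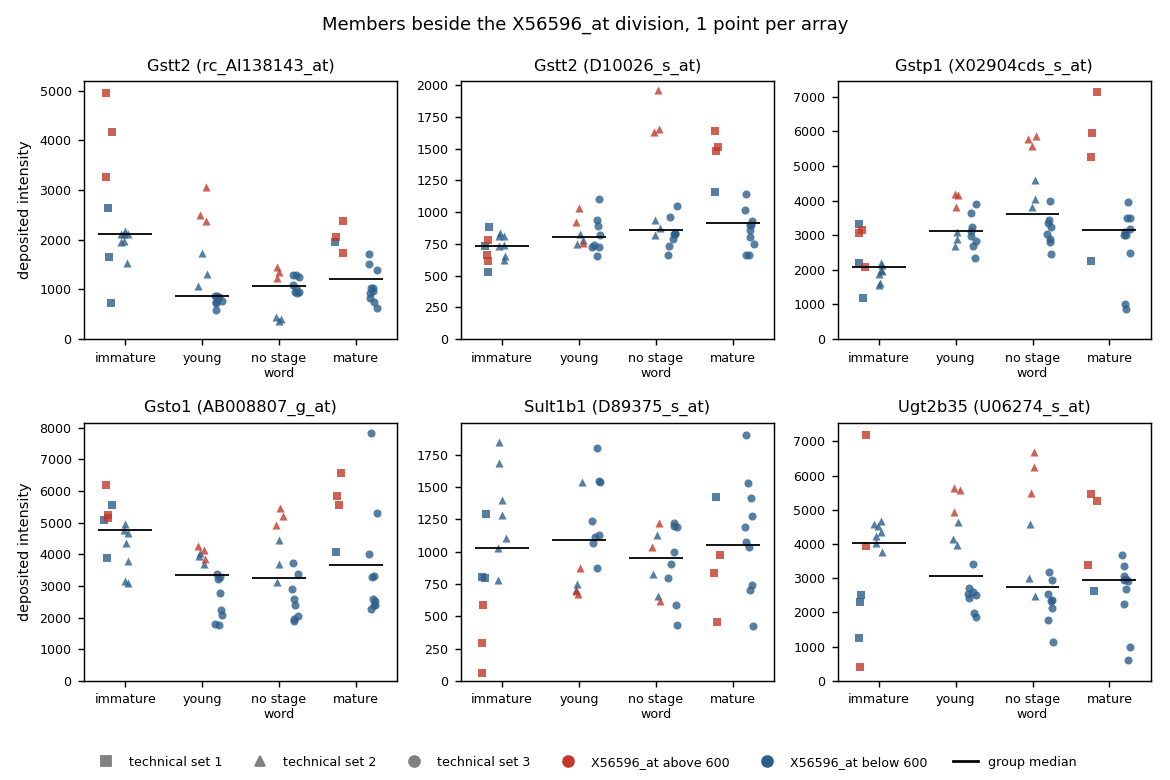
Intensity (deposited units) on arrays with X56596_at above and below 600 for both Gstt2 probe sets, the second Gstp1 probe set, Gsto1, Sult1b1 and Ugt2b35. The representative Gstt2 probe set has medians of 2385 above and 1021 below.

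A second Gstp1 probe set, X02904cds_s_at, was higher above 600 by 0.74 ± 0.14 (adjusted p = 1.2e-04, limma), with 0.57 under the block (adjusted p = 0.098). Of the pathway genes, Bhmt, which remethylates homocysteine with betaine, read 585.8, 828.6 and 1035 above and 225.1, 374.6 and 606.2 below, 1.03 (adjusted p = 3.0e-13), and 0.88 with the block (adjusted p = 1.4e-07). Ephx2, an epoxide hydrolase of lipids, was higher by 1.02 (adjusted p = 7.2e-07) and by 1.38 with the block. Nr3c1, the glucocorticoid receptor, fell by 1.12 in log2 (adjusted p = 0.0036) and was -0.24 with the block (adjusted p = 0.71). Thrb, a thyroid hormone receptor, was -0.46 (adjusted p = 0.026). Dpep1, a dipeptidase of the brush border, was 0.85 higher (adjusted p = 1.4e-04) and Slc13a3 -0.47 (adjusted p = 5.5e-04). The block gave -0.27 for Thrb (adjusted p = 0.81), 0.64 for Dpep1 (adjusted p = 0.089) and -0.16 for Slc13a3 (adjusted p = 0.8), so these 3 calls were lost. Mat2a, which makes S-adenosylmethionine (0.84, adjusted p = 0.011), Sod3, an extracellular superoxide dismutase (0.51, adjusted p = 0.033), and Idh1, a source of NADPH (0.35, adjusted p = 0.027), were higher. Their calls were lost with the block as well, at 0.79 for Mat2a (adjusted p = 0.059), 0.70 for Sod3 (adjusted p = 0.067) and 0.30 for Idh1 (adjusted p = 0.34).

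Whether a stage change differed across the division was tested as an interaction. Mature against immature, 0 members passed by limma (6 had an unadjusted p under 0.05; background 1.82%). Young against immature 1 passed, Gstm1, by -1.40 ± 0.41 (adjusted p = 0.045; background 3.30%). No stage word against immature 1 passed, Sult1b1, by 2.39 ± 0.52 (adjusted p = 0.014; background 0.976%). The other contrasts gave 0: mature against young (2 unadjusted; background 0.229%), no stage word against young (1 unadjusted; background 0%) and mature against no stage word (3 unadjusted; background 0.351%). Blocked by set, 0 passed in any of the 6. Without the 2 arrays with a high GAPDH ratio, 1 member passed mature against immature (Gsr; background 2.91%), 4 young against immature (Gsta4, Sult1b1, Gstm1 and Mgst2; background 9.95%), 5 no stage word against immature (Gsta4, Sult1b1, Ugt2b35, Gstm1 and Gstm2; background 5.95%) and 1 mature against no stage word (Gpx1; background 1.14%).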

How the data were processed

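Total RNA of 55 rat kidney samples was measured on 1-colour Affymetrix arrays, and the deposited values are linear intensities of 8799 probe sets. How probes were summarised and arrays scaled is not given in the sources used here, and their 2% trimmed mean was 500.2 to 500.7 on every array, so the deposited scaling was kept. The number of arrays limits the precision, and depth does not apply. Samples were grouped by the stage word of their description. No pair of arrays held identical values.

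Values were taken as log2(intensity + 15.82), where the offset is 0.1 of the median of all values (158.2), so fold changes of dim probe sets are understated. The 59 control probe sets and those below the 25th percentile of mean log2 (an intensity of about 44.3) were left out, which left 6555. Of all probe sets, 7018 carried 1 symbol in the platform annotation, 308 several and 1473 none, and 6994 were updated through RefSeq (GRCr8). limma 3.58.1 in R 4.3.3 was fitted to all 6555 probe sets, with 2-sided tests and Benjamini-Hochberg adjustment, threshold 0.05. The division by X56596_at at 600 had stage as a term. Interactions were differences of stage contrasts in a fit of stage by division, and those other than mature against immature were added after the data were seen.

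On simulated data with 6555 probe sets, mature against immature recovered 46.3%, 86.6% and 100% of log2 changes of 0.5, 1 and 2. The division recovered 50.7%, 98.5% and 100%, and the interaction 0%, 29.9% and 81.8%.

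Every member past the threshold in mature against immature, young against immature, mature against young or the division was named, the others by their level range, and up to 3 genes of each pathway list for mature against immature and 2 for the division. The members, lists, technical sets and rules were chosen with earlier results of these data known. Alternatives were the scaling, offset, filter, probe set per gene, array weights, technical sets, division, arrays with a high GAPDH ratio and each array left out. The sets with the division or without high GAPDH arrays, the arrays with a high 18S reading, and sets 1 and 2 alone were added after the data were seen. Promoter sequences are from RefSeq (GRCr8). Replicate numbers follow deposition order and pair nothing.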

Additional observations from a re-analysis of the deposited data

Results flagged for a closer look

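Gstm1 differed across the division in its change from immature to young. The interaction, above 600 minus below, was -1.40 ± 0.41 on the log2 scale (adjusted p = 0.045, limma), and -0.21 with the technical set as a block (adjusted p = 0.99). Above 600, immature arrays, all in set 1, read 819.7, 845.1 and 1247 and young arrays, all in set 2, read 537.0, 561.4 and 562.4. Below 600, the 7 immature arrays of set 2 read 328.8 to 392.1, the 3 of set 1 read 777.4, 978.6 and 1792, and the young arrays read 543.0 to 1031. All 7 of those set 2 arrays had a high 18S reading, whose part in the interaction was not tested.

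Sult1b1 differed in its change from immature to no stage word. The interaction was 2.39 ± 0.52 (adjusted p = 0.014, limma), and 0 members passed with the set as a block. Above 600, immature arrays read 57.0, 293.0 and 587.7 and arrays with no stage word 621.6, 1038 and 1221. Below 600, immature arrays read 780.3 to 1847 and arrays with no stage word 436.0 to 1223.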

How the results depend on the processing

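The 28 called changes of named members were refitted in 433 alternatives other than single arrays left out, of which 291 kept direction and call, 137 kept the direction but lost the call and 5 reversed. The 5 reversals were Ugt2b mature over immature inside set 1 (-0.07), Ugt2b young over immature without the arrays with a high 18S reading (-0.07), Gsta4 young over immature inside the arrays above 600 (0.21), Sult1b1 above over below 600 inside the arrays with no stage word of set 2 (0.12) and Gpx4 above over below 600 inside set 1 (-0.01). Array weights raised the members called to 22 in the F test (background 60.8%), 25 mature against immature (56.3%) and 19 young against immature (44.3%). They gave 27 no stage word against immature (58.4%) and 2 no stage word against young (5.68%). Above against below 600 gave 14 (29.5%) and mature against young 0 (3.97%). The calls over all probe sets thus rose as well. With the set as a block the counts were 7 young against immature (background 8.89%) and 0 mature against young (1.31%). Mature against no stage word gave 1 (5.26%) and above against below 600 gave 1 (2.12%). Adding the division to the block gave 7, 0 and 1 for the first 3 of these 4 comparisons (backgrounds 5.49%, 1.39% and 5.31%). The block without the arrays with a high GAPDH ratio gave 0 mature against young (background 1.51%) and 17 no stage word against immature (28.8%). It gave 2 no stage word against young (3.83%) and 5 mature against no stage word (13.0%). Without the arrays with a high GAPDH ratio alone, mature against young gave 0 (background 0.900%) and the interaction of mature against immature 1 (2.91%). The interactions of young against immature, no stage word against immature and mature against no stage word gave 4, 5 and 1, in place of 1, 1 and 0. Their backgrounds were 9.95%, 5.95% and 1.14%, in place of 3.30%, 0.976% and 0.351%. The causes were not tested. Leaving out each array in turn gave 8 to 15 members in the F test, 8 to 13 mature against immature, 8 to 13 young against immature, 8 to 13 no stage word against immature, 0 to 2 mature against young, 5 to 8 above against below 600, and 0 in the other pairs of groups. Without immature replicate 4, mature against immature called 13. Shares over all probe sets are not given for these fits, so the counts are not read as results about the members. No paired analysis was possible because the labels give no replicate numbers shared between groups.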

Other observations

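Other probe sets of the members gave further values. A second Gpx1 probe set, X07365_s_at, was higher mature over immature by 0.44 ± 0.14 (adjusted p = 0.018, limma) and by 0.30 with the technical set as a block (adjusted p = 0.19), while the representative passed no test. The other Gstm1 probe sets, H32189_s_at and X04229cds_s_at, rose young over immature by 0.50 (adjusted p = 0.014) and 0.51 (adjusted p = 0.027), and by 0.72 (adjusted p = 1.8e-04) and 0.74 (adjusted p = 2.0e-04) with the block. The Gstm1 representative was called lower in that comparison without the arrays with a high 18S reading, and inside the arrays above 600. A second Gss probe set, L38615_at, rose above over below 600 by 0.42 (adjusted p = 0.0058), 0.22 with the block (adjusted p = 0.72). A second Gsto1 probe set, AB008807_at, fell by 0.53 mature against immature (adjusted p = 0.039) and was -0.05 with the block (adjusted p = 0.91); above over below 600 it was 0.60 (adjusted p = 0.0044), 0.36 with the block (adjusted p = 0.56). The second Gpx3 probe set, D00680_at, rose young over immature by 1.15 (adjusted p = 0.031), 0.27 with the block (adjusted p = 0.74). The Ugt2b probe set rc_AI169708_s_at fell by 0.66 above against below 600 (adjusted p = 0.01) and was -0.27 with the block (adjusted p = 0.9).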
